A study of Homo sapiens with 6 samples.

Results

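The early response of HK-2 cells to cisplatin was measured on 4 of the 6 arrays of the series, 2 from cells collected 6 h after 50 μM cisplatin and 2 from control cells. The arrays were chosen by their labels alone, and all 18239 genes with a probe set of their own were compared between them. HK-2, an established line of human proximal tubule epithelium, was immortalized with the E6 and E7 genes of a papillomavirus, and E6 is known to drive the breakdown of p53. Cells of every group were grown in keratinocyte serum-free medium with epidermal growth factor and bovine pituitary extract. The control arrays carry no time in their labels, so cisplatin and hours in the dish cannot be told apart. Both arrays of a group are labelled as biological replicates with nothing further said of their origin, and p-values here measure the spread between these arrays, which may be technical. RNA was taken from whole cultures, and fewer cells of a kind cannot be told apart from less RNA per cell.

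Cisplatin is a platinum drug that binds purine bases and links neighbouring bases of DNA. Such links stop DNA polymerases and also RNA polymerase II, and the cell is known to respond through stress-activated MAP kinases, which induce immediate-early genes within the first hours, and through p53, which induces cell cycle inhibitors and genes of apoptosis. The proximal tubule takes up the drug and is the part of the kidney known to suffer most from it.

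Values are log2 signals after robust multi-array average analysis (RMA). That method gives every array the same distribution, and each change is therefore measured against the rest of the array. Genes are said to pass, to rise or to fall where limma gave an adjusted p under 0.05. Correlation over all probe sets was 0.998 between the 6 h arrays and 0.997 between the control arrays, against 0.983 to 0.985 between arrays of different groups, and no gene differed by more than 2-fold within either group. The log2 signal of 3′ over 5′ probe sets of ACTB, a sign of RNA integrity, was 2.02 and 1.53 at 6 h and 2.07 and 1.11 in control. The spike-in probe sets, made for bacterial and phage RNA, were higher at 6 h than in control, by 0.10 for the 9 hybridization spike-ins and by 0.54 for the 12 poly-A spike-ins. The hybridization spike-ins were bright, with a mean log2 signal of 9.49 at 6 h and 9.40 in control. The poly-A spike-ins (4.75 and 4.21) and the other 15 (4.24 and 3.84) lay under 5 on average, where array signals are known to be compressed. Scalings that use them rest on dim probe sets. Aligning the arrays on the 36 spike-ins would place the median gene at -0.34, and aligning them on 11 housekeeping genes at -0.07, against 0.03 as deposited. Of 7 epithelial markers 5 were bright, EPCAM with 9.74 and 9.78 at 6 h and 9.55 and 9.67 in control, and 2 were dim, CDH1 and KRT7. KRT18, KRT19 and TJP1 were lower at 6 h and none was higher, whereas 8 of 9 proximal tubule markers, CUBN, LRP2 and AQP1 among them, stayed under a log2 signal of 5 in both groups and DPP4 alone exceeded it. All 5 endothelial and all 5 distal nephron markers were also under 5, as were 5 of 6 leukocyte and 4 of 6 fibroblast markers, with CD68 (7.95 and 8.01 at 6 h, 7.80 and 7.62 in control) and LUM (9.26 and 9.18 at 6 h, 8.76 and 9.00 in control) among those above it.

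At 6 h, 5435 of the 18239 genes passed (29.8%), of which 2549 (14.0%) were higher and 2886 (15.8%) were lower than in control. The split depends on how arrays are aligned, since 53.1% of the passing genes were lower as deposited, but 69.6% after scaling to the hybridization spike-ins, 68.8% after scaling to housekeeping genes, 93.7% with all spike-ins and 97.6% with the poly-A spike-ins. Most changes were small: 1406 of the higher and 1070 of the lower genes moved by less than 0.5 on the log2 scale. Falls outnumbered rises among large changes, with 444 genes lower by 1 to 1.5 against 177 higher, 138 lower by 1.5 to 2 against 56 higher, and 50 lower by 2 or more against 35 higher. By the rule of the study's methods, a 2-fold change with an unadjusted p under 0.01, 900 genes changed (4.93%), 268 (1.47%) higher and 632 (3.47%) lower. The 6 h arrays lay wholly above the control arrays for 6343 genes (34.8%) and wholly below them for 5233 (28.7%), and no passing gene had overlapping arrays.

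**Figure D1:**
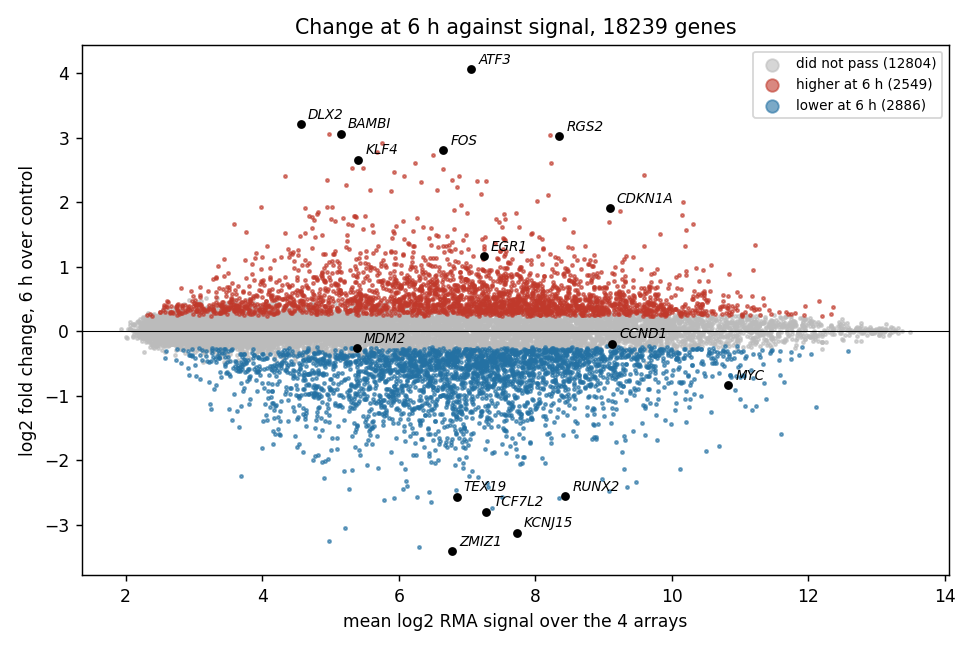
Log2 fold change (6 h over control, y axis) against mean log2 RMA signal over the 4 arrays (x axis) for 18239 genes, coloured by whether a gene was higher (2549), lower (2886) or did not pass at an adjusted p under 0.05. Black points mark 16 named genes; ATF3 lies alone at 4.07, and large falls and rises are found across the middle of the signal range.

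ATF3, a stress-induced basic leucine zipper repressor, rose most of all 18239 genes. Its log2 signal was 9.02 and 9.16 at 6 h, against 5.00 and 5.05 in control, a log2 fold change of 4.07 ± 0.08 (SE, n = 2 arrays per group, adjusted p = 4.3e-07), or 16.8-fold. The homeobox gene DLX2 followed, with 6.15 and 6.19 at 6 h and 3.17 and 2.74 in control (3.21 ± 0.13, adjusted p = 2.3e-06). BAMBI, a decoy receptor that dampens TGF-beta signalling, had 6.68 and 6.70 at 6 h and 3.84 and 3.40 in control (3.07 ± 0.13, adjusted p = 3.1e-06). In both DLX2 and BAMBI the control signals are under 5, where array signals are known to be compressed.

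RGS2, which speeds the switching off of G proteins, was already bright in control and rose to 9.90 and 9.83 at 6 h, against 6.84 and 6.83 in control (3.03 ± 0.08, adjusted p = 7.9e-07). RSRP1, a nuclear arginine- and serine-rich protein, had 9.71 and 9.76 at 6 h and 6.66 and 6.73 in control (3.04 ± 0.08, adjusted p = 6.5e-07). HES6, a helix-loop-helix partner of HES1, reached 7.90 and 7.82 at 6 h, against 5.20 and 5.06 in control (2.73 ± 0.09), and SERTAD1, a cofactor of E2F and CDK4, reached 9.52 and 9.54, against 7.11 and 6.75 (2.60 ± 0.12). The remaining leading rises, TMEM47, RASL11B, LSMEM1, KLF4, SERPINI1, NEFM, RGCC and FOS, lay between 2.53 and 3.07. All of these but FOS also had both control signals under 5, where the scale is compressed. For each of the 15, both 6 h arrays were above both control arrays with a gap wider than the distance between replicates. Lack of overlap was a condition for naming them, and the largest changes were taken, so this separation adds no evidence.

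The falls were led by ZMIZ1, a SUMO ligase-like coactivator of nuclear receptors and p53. Its log2 signal was 5.21 and 4.96 at 6 h, against 8.47 and 8.51 in control (-3.41 ± 0.10, adjusted p = 9.2e-07). KCNJ15, an inwardly rectifying potassium channel, fell to 6.15 and 6.17 at 6 h, against 9.25 and 9.32 in control (-3.12 ± 0.08, adjusted p = 6.5e-07). TCF7L2, the transcription factor at the end of the WNT pathway, had 5.89 and 5.86 at 6 h and 8.63 and 8.73 in control (-2.80 ± 0.12, adjusted p = 2.5e-06), and all 7 of its probe sets were lower.

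RUNX2, a runt-domain factor best known from bone, fell to 7.19 and 7.13 at 6 h, against 9.65 and 9.78 in control (-2.56 ± 0.09, adjusted p = 1.4e-06). The guanine nucleotide exchange factor VAV3 had 3.42 and 3.28 at 6 h, against 6.56 and 6.65 in control, and NHS, an actin regulator, 4.70 and 4.57 against 7.93 and 8.02. At 6 h both lie under a log2 signal of 5, where the scale is compressed, and the falls were 3.25 and 3.35 on the log2 scale. Other leading falls were KIF26B, FBXO32, PTPRE, ZHX2, GPR39, FNDC3B, PRKCE, BCAR3 and TEX19, between -2.56 and -3.05. Of these, KIF26B, ZHX2, GPR39 and PRKCE also lay under 5 on both 6 h arrays. Probe sets did not all move alike, since only 1 of 4 for KIF26B, 1 of 2 for NHS and 4 of 6 for VAV3 had the sign of the probe set used. Of the 20 leading genes with more than 1 probe set, 14 had the same sign in all of them.

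**Figure D2:**
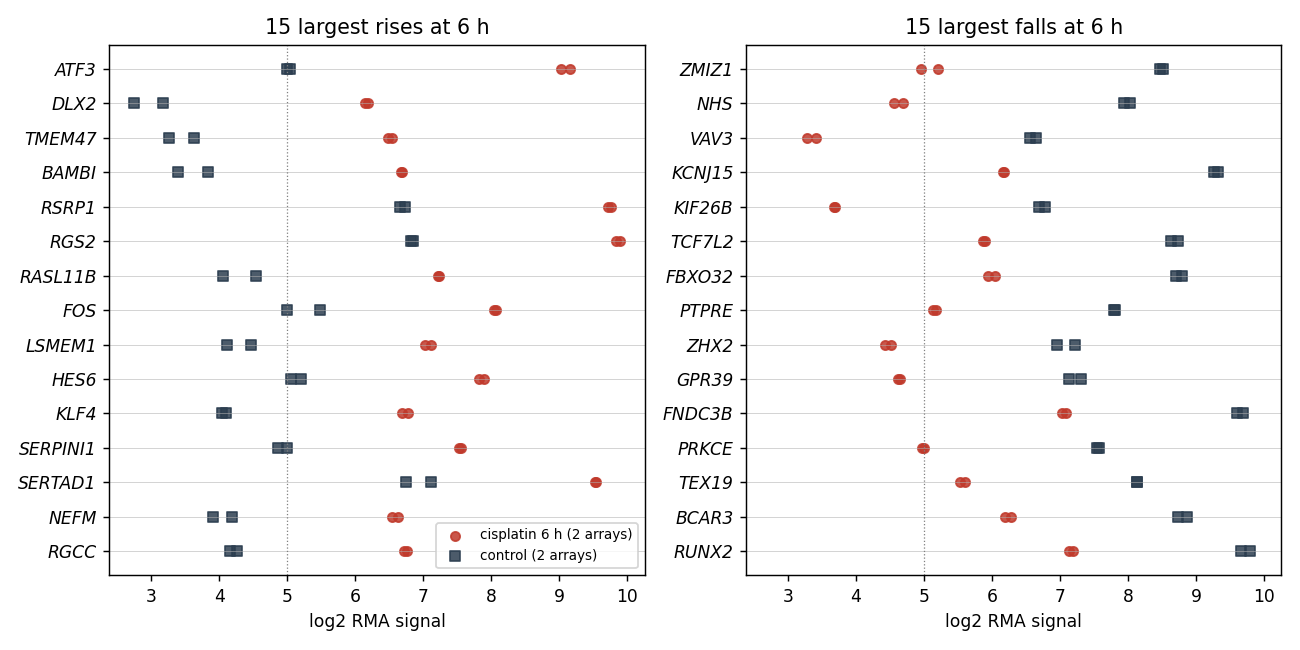
Log2 RMA signal of each array (x axis) for the 15 genes with the largest rises (left panel) and the 15 with the largest falls (right panel); red circles are the 2 arrays at 6 h, dark squares the 2 control arrays, and the dotted line marks a log2 signal of 5. In every row the arrays of a group lie close together. The groups do not overlap because genes were chosen on that condition.

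The upstream sequences of 5 strongly raised genes are shown because each holds CCAAT, the letters bound by the trimeric factor NF-Y. They were chosen after their matches were seen, are read from RefSeq on GRCh38.p14, and give the 130 bases before the annotated start, 5′ to 3′ on the strand of the gene, with CCAAT or its reverse complement in capitals.
BAMBI (chr10:28677391-28677520, plus strand): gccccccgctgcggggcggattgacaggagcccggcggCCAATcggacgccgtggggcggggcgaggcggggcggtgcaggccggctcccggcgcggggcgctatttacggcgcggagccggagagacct
RGS2 (chr1:192808909-192809038, plus strand): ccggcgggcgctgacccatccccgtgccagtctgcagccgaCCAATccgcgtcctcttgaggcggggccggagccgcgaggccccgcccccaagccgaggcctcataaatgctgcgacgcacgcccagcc
SERTAD1 (chr19:40425993-40426122, minus strand): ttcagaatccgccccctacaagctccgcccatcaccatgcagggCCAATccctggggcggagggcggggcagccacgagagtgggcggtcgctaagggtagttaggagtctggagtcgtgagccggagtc
MSX1 (chr4:4859535-4859664, plus strand): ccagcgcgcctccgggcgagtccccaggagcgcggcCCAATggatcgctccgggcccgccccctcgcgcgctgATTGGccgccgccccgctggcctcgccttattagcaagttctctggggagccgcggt
HES6 (chr2:238240039-238240168, minus strand): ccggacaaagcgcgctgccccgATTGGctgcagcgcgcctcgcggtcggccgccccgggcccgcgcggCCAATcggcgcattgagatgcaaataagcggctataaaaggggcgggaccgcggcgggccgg

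In the plus orientation of the gene, CCAAT begins 92 bases before the start of BAMBI, 89 before RGS2, 86 before SERTAD1, 94 before MSX1 and 62 before HES6. MSX1, a homeobox repressor, belongs with them by its rise, with 7.82 and 8.002 at 6 h and 5.37 and 5.40 in control (2.52 ± 0.09, adjusted p = 1.4e-06). Over the 250 bases before the start and on both strands, CCAAT was found in 15 of 29 promoters of genes that rose 4-fold or more (51.7%), in 43.1% of 218 promoters of the 2-fold higher genes, in 33.5% of 529 promoters of the 2-fold lower genes and in 34.5% of all 14484 promoters matched by gene number. TGACG, the core of the sites of CREB and ATF factors, was found in 37.9%, 33.0%, 21.9% and 25.9% of the same groups, and in 14.6% of the 41 promoters of genes lower by 4-fold or more. GGGCGG, the letters of the Sp1 box, was found in 71.6% of promoters of the 2-fold higher genes, 68.2% of the 2-fold lower ones and 57.3% of all. It was in 79.3% of promoters of genes higher by 4-fold or more and 56.1% of those lower by 4-fold or more. The base composition of these promoters also differed, with a median GC content of 66.4% in the 2-fold higher, 65.2% in the 2-fold lower and 62.8% in all promoters, and these shares are descriptions with no test.

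Immediate-early genes rose more often than genes at large. Of 12 measured AP-1 and ATF factors, which pair through leucine zippers to bind DNA, 7 were higher and 2 lower at 6 h, and of 25 other immediate-early genes 17 were higher and 4 lower, against 14.0% and 15.8% of all genes. The median log2 fold changes were 0.47 and 0.49, and both turned negative only with the poly-A scaling (-0.07 and -0.05). Within AP-1 the direction split by member. FOS had 8.04 and 8.07 at 6 h and 5.01 and 5.49 in control (2.81 ± 0.14, adjusted p = 5.2e-06), JUNB 7.24 and 7.39 against 6.06 and 5.92 (1.32 ± 0.09), and JUN 10.86 and 10.87 against 10.21 and 10.27 (0.62 ± 0.08). The FOS relatives FOSL1 and FOSL2 fell instead: FOSL1 had 7.07 and 7.15 at 6 h and 9.18 and 8.99 in control (-1.97 ± 0.09, adjusted p = 3.8e-06), and FOSL2 7.05 and 7.07 against 8.91 and 8.66 (-1.72 ± 0.10, adjusted p = 1e-05).

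Among the other immediate-early genes, EGR1, a zinc finger factor, had 7.87 and 7.79 at 6 h, against 6.66 and 6.67 in control (1.17 ± 0.08, adjusted p = 2e-05). IER5 had 9.28 and 9.31 against 7.56 and 7.55 (1.75 ± 0.08), and ID3, an inhibitor of helix-loop-helix factors, 5.77 and 5.72 against 3.75 and 4.02 (1.86 ± 0.11). The secreted matricellular proteins CCN2 and CCN1, both known as targets of YAP and of serum response factor, moved apart. CCN2 had 11.07 and 11.04 at 6 h and 9.21 and 9.30 in control (1.80 ± 0.08, adjusted p = 3.1e-06), whereas CCN1 had 10.64 and 10.66 at 6 h and 11.79 and 11.83 in control (-1.15 ± 0.09, adjusted p = 3.4e-05). MYC was lower, with 10.32 and 10.48 at 6 h and 11.14 and 11.35 in control (-0.84 ± 0.10, adjusted p = 0.00031), and so were ZFP36L1 and IER3. Of the Krüppel-like factors, KLF4 (2.66 ± 0.08) and KLF5 (1.75 ± 0.11) rose while KLF6 (-0.97 ± 0.11), KLF7 (-1.38 ± 0.13) and KLF9 (-1.55 ± 0.08) fell.

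The upstream stretches of DLX2 and of 3 genes of immediate-early or feedback signalling are shown for the letters through which immediate-early genes are known to be switched on. DLX2, FOS and DUSP1 have TGACG or its reverse complement in capitals, and EGR1 has its CArG boxes, the letters of serum response factor. All are the 130 bases before the start on the strand of the gene in GRCh38.p14, picked with their matches known.
DLX2 (chr2:172102901-172103030, minus strand): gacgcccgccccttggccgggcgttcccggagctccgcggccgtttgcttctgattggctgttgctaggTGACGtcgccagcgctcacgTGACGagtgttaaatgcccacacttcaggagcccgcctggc
FOS (chr14:75278698-75278827, plus strand): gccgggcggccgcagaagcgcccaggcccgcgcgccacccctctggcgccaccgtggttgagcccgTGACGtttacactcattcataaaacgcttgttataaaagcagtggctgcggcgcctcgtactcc
DUSP1 (chr5:172771196-172771325, minus strand): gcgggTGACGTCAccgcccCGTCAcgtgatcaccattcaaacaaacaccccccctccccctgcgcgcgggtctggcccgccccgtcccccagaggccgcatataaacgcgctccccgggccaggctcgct
EGR1 (chr5:138465349-138465478, plus strand): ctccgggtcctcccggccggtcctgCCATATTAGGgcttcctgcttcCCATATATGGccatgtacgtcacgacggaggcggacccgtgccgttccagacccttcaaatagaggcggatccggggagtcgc
The CArG boxes of EGR1 begin 105 and 83 bases before its start, and the TGACG of FOS begins 64 bases before its start. A CArG box was found in 1.2% of all 14484 promoters and in 2.29% of those of the 2-fold higher genes, and the full palindrome TGACGTCA, which holds TGACG, in 2.35% and 4.13%. Of the 29 promoters of genes 4-fold or more higher, 0 held either.

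The brakes on MAP kinase signalling did not move together. Of 17 dual-specificity phosphatases, Sprouty and SPRED proteins, 5 were higher (29.4%) and 8 lower (47.1%), against 14.0% and 15.8% of all genes. DUSP1, which removes phosphate from JNK and p38, had 7.49 and 7.38 at 6 h and 6.69 and 6.72 in control (0.73 ± 0.08, adjusted p = 0.00023), and DUSP2 was higher by 0.89 ± 0.08. Others fell, among them SPRED2, an inhibitor of the RAS to ERK route, which had 7.12 and 7.13 at 6 h and 9.14 and 9.18 in control (-2.04 ± 0.08, adjusted p = 1.8e-06), SPRY1 5.94 and 5.69 against 7.06 and 7.04 (-1.23 ± 0.10), and DUSP6 9.88 and 9.86 against 10.51 and 10.50 (-0.63 ± 0.08). DUSP5, SPRY2 and SPRED1 were lower as well, by 0.87 to 1.22 on the log2 scale. The higher count was 2 without 6 h replicate 1 and 3 without any other array of the comparison.

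**Figure D3:**
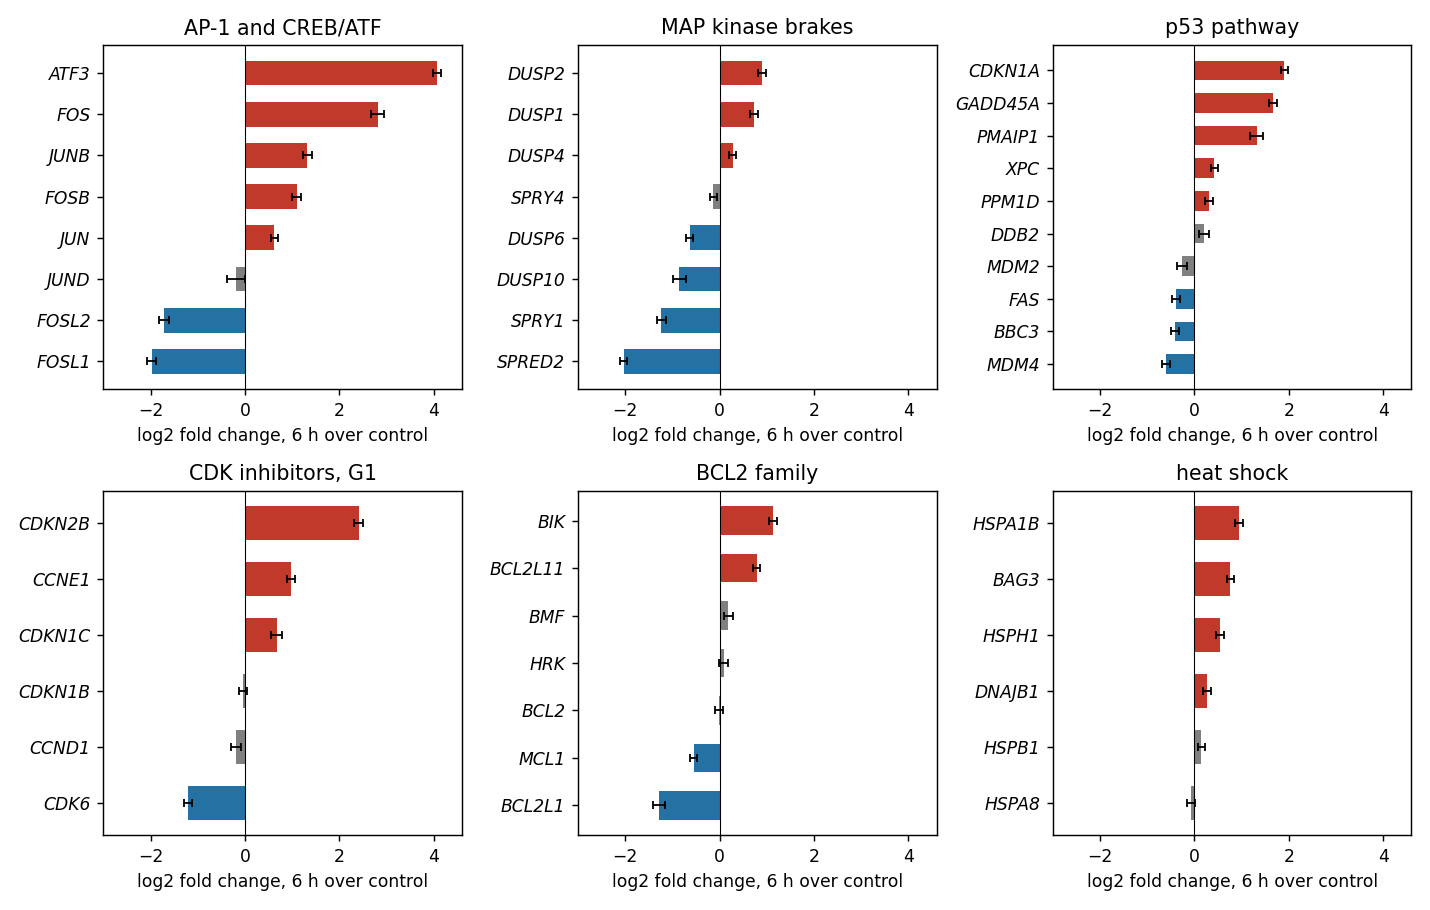
Log2 fold change at 6 h over control (bars; error bars are SE from the fit over all arrays, 2 per group) for members of 6 gene families picked as examples with their values known; red bars passed as higher, blue bars as lower and grey bars did not pass. In most panels members of a family lie on both sides of 0, from ATF3 at 4.07 to SPRED2 at -2.04.

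Direct targets of p53 moved in both directions, more often up than down. Of 45 measured targets, 16 were higher and 6 lower (35.6% and 13.3%, against 14.0% and 15.8% of all genes). The median log2 fold change was 0.16. It was 0.06 with the hybridization spike-ins or the housekeeping genes and turned to -0.21 with all spike-ins. CDKN1A, the CDK inhibitor p21, had 10.06 and 10.02 at 6 h and 8.11 and 8.16 in control (1.91 ± 0.08, adjusted p = 2.6e-06). GADD45A, a gene induced by DNA damage, had 11.13 and 11.17 against 9.43 and 9.52 (1.67 ± 0.08, adjusted p = 4e-06). PMAIP1, which encodes the BH3-only protein NOXA, had 10.76 and 10.95 against 9.35 and 9.72 (1.32 ± 0.14, adjusted p = 0.00018). The decoy receptor gene TNFRSF10D rose by 1.87 ± 0.08, TP53I3 by 1.04 ± 0.08 and RRM2B, a ribonucleotide reductase subunit for repair, by 1.03 ± 0.08.

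Several standard p53 targets did not rise. MDM2, the ligase that degrades p53, had 5.34 and 5.18 at 6 h and 5.40 and 5.64 in control (-0.27 ± 0.11, adjusted p = 0.1). Of its 11 probe sets 10 had that sign. The one used is the brightest of them and lies little above 5, under which the scale is compressed. BAX, the pore-forming BCL2 relative, differed by -0.01, and DDB2, of nucleotide excision repair, by 0.20 ± 0.11 (adjusted p = 0.22). DDB2 was dim, with 4.68 and 4.57 at 6 h and 4.29 and 4.56 in control, where a change may not register. FAS (-0.39 ± 0.09, adjusted p = 0.0095) and BBC3, which encodes PUMA (-0.41 ± 0.09, adjusted p = 0.0094), were lower. Of the targets, 1 was lower without 6 h replicate 1, 3 without 6 h replicate 2, 3 without control replicate 2 and 4 without control replicate 1. Among 21 regulators of p53, 9 were lower (42.9%) and 2 higher (9.5%), against 15.8% and 14.0% of all genes. The kinase HIPK2 had 8.98 and 9.04 against 10.19 and 10.20 (-1.18 ± 0.08). The ligase COP1 had 6.68 and 6.64 against 8.02 and 8.05 (-1.37 ± 0.08), MDM4 was lower by 0.61 and the deacetylase SIRT1 higher by 0.97 ± 0.09. The higher count was 1 without any array of the comparison.

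Inhibitors of cyclin-dependent kinases rose in 4 of 6 cases (66.7%) and fell in none, against 14.0% and 15.8% of all genes. CDKN2B, the CDK4 and CDK6 inhibitor p15, had 7.30 and 7.28 at 6 h and 4.96 and 4.80 in control (2.41 ± 0.09, adjusted p = 1.8e-06), and CDKN2D (0.89 ± 0.08) and CDKN1C (0.67 ± 0.11) were higher with CDKN1A. CDKN1B and CDKN2A differed by -0.04 and 0.08. The G1 cyclins of the E type rose, with CCNE2 at 9.34 and 9.30 against 7.71 and 7.85 (1.54 ± 0.09, adjusted p = 8.6e-06) and CCNE1 higher by 0.98 ± 0.08. E2F1, which drives S-phase genes, rose by 0.81 ± 0.10, whereas CDK6 (-1.21 ± 0.09), E2F3 (-0.82 ± 0.08) and E2F5 (-1.34 ± 0.10) fell. CCND1 had 8.93 and 9.13 at 6 h and 9.14 and 9.30 in control, and did not pass (-0.19 ± 0.11, adjusted p = 0.25).

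Genes of G2 and mitosis were lower as a group. Of 47 measured, 34 (72.3%) fell and 2 (4.3%) rose, against 15.8% and 14.0% of all genes. NEK2 rose by 0.33 and PKMYT1 by 0.38, and the median log2 fold change of the list was -0.45. CENPA, the centromeric histone, had 8.09 and 8.04 at 6 h and 9.76 and 9.65 in control (-1.64 ± 0.08, adjusted p = 4.7e-06). The kinesins KIF20B (-1.46 ± 0.12), KIF18A (-1.31 ± 0.10) and KIF14 (-1.25 ± 0.10), which move chromosomes and the midbody, fell, and AURKA, a spindle pole kinase, had 9.32 and 9.24 against 10.33 and 10.32 (-1.04 ± 0.08). Of the list members that did not pass, CDK1 had 10.80 and 10.85 at 6 h and 10.64 and 10.84 in control (0.09 ± 0.09, adjusted p = 0.55) and CCNA2 differed by -0.12 ± 0.08, both picked with their values seen. With any array of the 6 h or control group left out, 26 to 30 of the 47 were lower, and 1 was higher without control replicate 1 or 6 h replicate 2 and 0 without the others.

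DNA replication genes showed no common direction, with 10 of 44 higher and 11 lower and a median of 0.00. The origin factors split, since ORC6 (0.87 ± 0.08) and ORC1 (0.75 ± 0.09) were higher while ORC2, with 6.37 and 6.23 at 6 h and 7.36 and 7.44 in control, was lower (-1.10 ± 0.10, adjusted p = 6.5e-05). Both subunits of DNA primase fell, PRIM1 by 1.20 and PRIM2 by 0.74 on the log2 scale. The higher count was 5 without control replicate 2, 6 h replicate 1 or 6 h replicate 2.

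In the BCL2 family, members that restrain apoptosis were lower (3 of 6, 50.0%) or did not pass, and members that promote it moved both ways. Of those that promote it, 30.8% were higher and 23.1% lower, against 14.0% and 15.8% of all genes. The 3 restraining members that did not pass were dim in both groups, where a change may not register. BCL2L1, which encodes BCL-XL, had 8.23 and 8.20 at 6 h and 9.53 and 9.46 in control (-1.28 ± 0.13, adjusted p = 0.00015), and MCL1 9.82 and 9.84 against 10.38 and 10.38 (-0.55 ± 0.08, adjusted p = 0.00082). BCL2L2 was the other of 3 lower members of 6, by 0.73 on the log2 scale, but only 1 of its 3 probe sets had that sign. Of 13 promoters of apoptosis, 4 were higher: PMAIP1, BIK with 7.96 and 8.04 against 6.97 and 6.77 (1.13 ± 0.09, adjusted p = 4.4e-05), BCL2L11, which encodes BIM, with 7.53 and 7.61 against 6.82 and 6.75 (0.78 ± 0.08), and BAD (0.40). BBC3 (-0.41), BID (-0.29) and BOK (-0.54) were lower, a count that was 1 without control replicate 1 or 6 h replicate 1.

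The death receptor pathway was lower in 8 of 15 members (53.3%) and higher in TNFRSF10D alone (6.7%), against 15.8% and 14.0% of all genes. TNFSF10, the ligand TRAIL, had 9.56 and 9.59 at 6 h and 11.39 and 11.47 in control (-1.86 ± 0.08, adjusted p = 2.9e-06). The TNF receptor TNFRSF1A had 7.53 and 7.51 against 8.73 and 8.70 (-1.20 ± 0.08), and the adaptor FADD 7.33 and 7.36 against 8.22 and 8.13 (-0.83 ± 0.08). CFLAR, which blocks caspase-8 at the receptor, fell in all 9 of its probe sets, with 8.53 and 8.32 against 9.55 and 9.53 in the one used (-1.11 ± 0.10, adjusted p = 6.9e-05).

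Genes for the repair of platinum lesions moved in both directions. Of 31 genes of nucleotide excision repair and translesion synthesis, 7 were higher (22.6%) and 9 lower (29.0%), against 14.0% and 15.8% of all genes. ERCC4, a subunit of the nuclease that cuts on the 5′ side of a lesion, had 6.33 and 6.19 at 6 h and 5.54 and 5.54 in control (0.72 ± 0.09, adjusted p = 0.00034). The bypass polymerase genes REV3L, with 5.07 and 5.11 against 6.18 and 6.19 (-1.09 ± 0.09, adjusted p = 5.5e-05), and REV1 (-0.93 ± 0.09) fell together with RAD18 (-0.76 ± 0.10). The higher count was 3 without 6 h replicate 1 and 4 without 6 h replicate 2 or control replicate 2. Homologous recombination and Fanconi genes were lower in 11 of 30 (36.7%) and higher in 3 (10.0%). Mismatch, base excision and end-joining genes were lower in 10 of 28 (35.7%) and higher in 4 (14.3%). The lower Fanconi and recombination count was 7 without control replicate 2 or 6 h replicate 2, and the higher mismatch and base excision count 2 without control replicate 2 or 6 h replicate 1 and 1 without 6 h replicate 2. XRCC1, the scaffold of base excision repair, had 6.54 and 6.52 against 7.58 and 7.58 (-1.05 ± 0.08, 2 of 3 probe sets), and XRCC4, of end joining, fell by 1.40. XPC, the lesion sensor, was higher by 0.42 ± 0.08 (adjusted p = 0.0048), a value that turned to -0.12 with the poly-A scaling.

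Heat shock proteins and their co-chaperones, which refold damaged proteins, were higher in 15 of 33 cases (45.45%) and lower in 3 (9.1%). Among all genes the shares were 14.0% and 15.8%. The median of the list was 0.15. It was 0.05 with the hybridization spike-ins or the housekeeping genes and turned to -0.22 with all spike-ins. HSPA2 had 8.66 and 8.71 at 6 h and 7.17 and 7.19 in control (1.50 ± 0.09, adjusted p = 8.9e-06), and the inducible HSPA1B had 11.66 and 11.68 against 10.66 and 10.77 (0.95 ± 0.08, adjusted p = 5.5e-05). HSPB8 (1.04 ± 0.08) and BAG3 (0.76 ± 0.08), partners in chaperone-assisted autophagy, rose too. HSPA1A and HSPA1B are near-identical copies, and their signals may be shared.

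The integrated stress response and unfolded protein response had 10 of 33 members higher (30.3%) and 5 lower (15.15%). Among all genes the shares were 14.0% and 15.8%. The higher count of this list was 6 without control replicate 1 or 6 h replicate 2, and the lower 3 without control replicate 2 or 6 h replicate 2. The central factor ATF4 had 11.95 and 12.00 at 6 h and 11.89 and 11.90 in control (0.08 ± 0.08, adjusted p = 0.51). DDIT3, which encodes CHOP, differed by 0.37 ± 0.13 (adjusted p = 0.057) and the ER chaperone HSPA5 by 0.09 ± 0.08. ATF5 (0.80 ± 0.09) and the ER co-chaperone DNAJB9 (1.11 ± 0.10) were higher. DDIT4, a stress-induced inhibitor of mTORC1, was strongly lower, with 8.98 and 9.11 at 6 h and 11.06 and 11.30 in control (-2.14 ± 0.10, adjusted p = 4.6e-06), and the pseudokinase TRIB3 fell by 0.88.

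Among 39 NRF2 targets and antioxidant enzymes 13 were higher (33.3%) and 3 lower (7.7%), against 14.0% and 15.8% of all genes. Their median was 0.16. It was 0.06 with the hybridization spike-ins or the housekeeping genes and turned to -0.21 with all spike-ins. OSGIN1 had 6.66 and 6.74 at 6 h and 5.14 and 5.20 in control (1.53 ± 0.08, adjusted p = 5.9e-06). The limiting enzyme of glutathione synthesis rose in its catalytic subunit, with GCLC at 7.81 and 7.69 against 6.93 and 6.92 (0.82 ± 0.08, adjusted p = 0.00015), and in its modifier GCLM (0.56 ± 0.11). HMOX1 (0.57 ± 0.09), SOD2 (0.62 ± 0.08), SLC7A11 (0.52 ± 0.08) and GPX3 (0.95 ± 0.11) were higher, while NFE2L2, which encodes NRF2 itself, was lower by 0.36 and TXNRD1 by 0.30. The lower count was 0 without 6 h replicate 1 or 2 and 1 without control replicate 2. Of 9 metallothioneins, which bind heavy metals, MT1G (0.60 ± 0.10) and MT1X (0.34) were higher and none was lower. MT2A had 13.47 and 13.48 at 6 h and 13.48 and 13.49 in control, at the top of the signal range where a change may not register, and 3 of the 9 were dim. The metallothionein count was 1 without control replicate 2, 6 h replicate 1 or 6 h replicate 2.

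The respiratory chain moved by small amounts at 6 h. Of its 79 subunits, ATP synthase included, 15 were higher (19.0%, against 14.0% of all genes) and none lower. The median was 0.14, with 0.05 after scaling to the hybridization spike-ins or the housekeeping genes and -0.23 with all spike-ins. The largest differences were NDUFA2 (0.58 ± 0.09) and NDUFA5 (0.53 ± 0.08), subunits of complex I. The count of 15 rests on single arrays. Without control replicate 2 or without 6 h replicate 1 it was 2, without 6 h replicate 2 it was 5 and without control replicate 1 it was 7. In the TCA cycle and pyruvate dehydrogenase list, 8 of 31 were higher (25.8%) and 2 lower (6.5%), against 14.0% and 15.8% of all genes. The higher count of this list was 3 without 6 h replicate 2, 4 without control replicate 1 or 2 and 5 without 6 h replicate 1. MPC1, which carries pyruvate into mitochondria, had 7.22 and 7.11 at 6 h and 5.74 and 5.36 in control (1.61 ± 0.12, adjusted p = 3.3e-05). PDK4, a kinase that shuts pyruvate dehydrogenase, had 4.92 and 5.11 against 7.08 and 7.04 (-2.05 ± 0.09, adjusted p = 3.6e-06). PDP1, the other lower gene of this list, had 7.23 and 7.31 at 6 h and 8.04 and 8.22 in control (-0.86 ± 0.09, adjusted p = 0.00016).

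Glycolysis had 3 of 29 genes higher (10.3%) and 4 lower (13.8%), both shares under those of all genes. The higher genes were BPGM, which makes 2,3-bisphosphoglycerate, with 7.57 and 7.38 at 6 h and 6.10 and 6.09 in control (1.38 ± 0.09, adjusted p = 1.5e-05), GPI (0.29) and TIGAR (0.30). SLC2A1, the glucose transporter GLUT1, had 8.55 and 8.60 at 6 h and 9.65 and 9.66 in control (-1.08 ± 0.09, adjusted p = 4e-05). HK2, the inducible hexokinase, had 7.45 and 7.43 against 8.22 and 8.41 (-0.87 ± 0.09, adjusted p = 0.00016), HIF1A was lower by 0.35 and PFKFB3 by 0.45. The later enzymes LDHA, PGK1, ENO1 and GAPDH had log2 fold changes between -0.01 and 0.01. The higher count was 1 without control replicate 1 or 6 h replicate 2. Of the genes singled out in the study, BIK, RRM2B and ENDOG (0.80 ± 0.08, adjusted p = 0.00013) were higher and HK2, HIF1A, ACMSD (-0.44 ± 0.11, adjusted p = 0.019) and PRKAG2 (-1.23 ± 0.08, adjusted p = 1.5e-05) lower, while PDK1 (0.19 ± 0.09) and OPA1 (-0.25 ± 0.08, adjusted p = 0.051) did not pass. The lower count was 2 without 6 h replicate 2. That list was chosen by the study on these samples and is not independent evidence of direction.

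**Figure D4:**
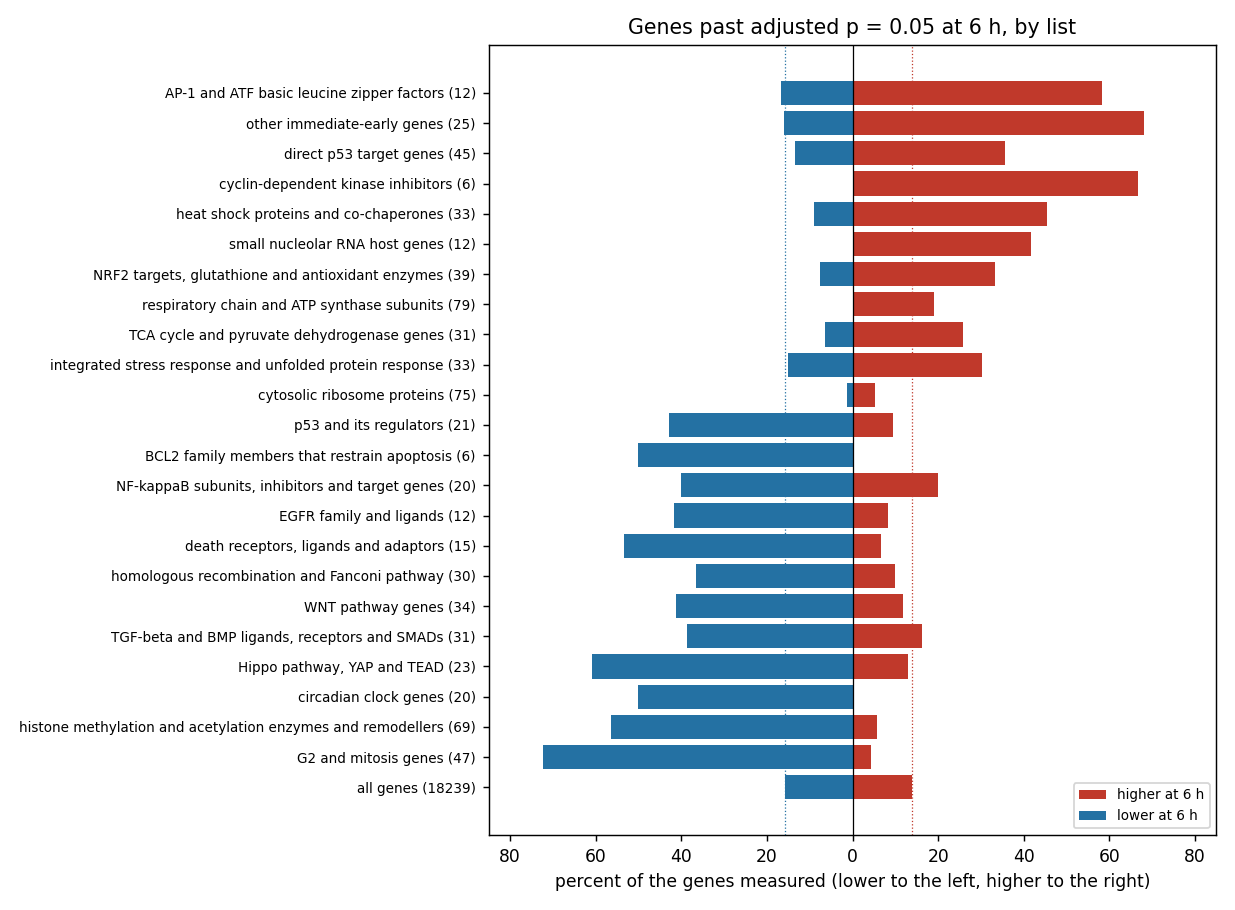
Percent of the measured genes of 23 lists (number in brackets) and of all genes that were higher (red, to the right) or lower (blue, to the left) at 6 h at an adjusted p under 0.05; dotted lines mark the shares of all genes, 14.0% and 15.8%. Immediate-early genes, AP-1 and CDK inhibitors reach farthest to the right, and G2 and mitosis, Hippo and chromatin genes farthest to the left.

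In lists of growth factor and developmental signalling, more members fell than rose except in NOTCH. In the EGFR family 5 of 12 members fell, against 15.8% of all genes, NRG1 to 8.64 and 8.68 at 6 h, against 10.22 and 10.19 in control (-1.55 ± 0.09, all 8 probe sets), and EGFR itself to 6.28 and 6.07, against 7.43 and 7.57 (-1.32 ± 0.10, but 4 of 8 probe sets). HBEGF, a ligand of EGFR shed from the membrane, rose instead, with 9.96 and 9.91 against 8.22 and 8.25 (1.70 ± 0.08, adjusted p = 4.6e-06). The hepatocyte growth factor receptor MET fell by 1.12 and FGFR3 rose by 2.18 ± 0.09.

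The WNT list had 14 of 34 lower (41.2%) and 4 higher (11.8%), against 15.8% and 14.0% of all genes. Besides TCF7L2, the kinase GSK3B had 6.87 and 6.79 at 6 h and 8.49 and 8.63 in control (-1.73 ± 0.09, adjusted p = 4.8e-06), and the co-receptor LRP6 and the feedback inhibitor AXIN2 were lower by 1.13 and 1.01. In the TGF-beta list, 12 of 31 were lower (38.7%) and 5 higher (16.1%). That higher count was 2 without control replicate 1 or 6 h replicate 1, and 3 without control replicate 2 or 6 h replicate 2. The signal transducer SMAD3 had 7.46 and 7.35 against 9.12 and 8.99 (-1.65 ± 0.09, adjusted p = 8.7e-06). In the Hippo list 14 of 23 were lower (60.9%), among them the coactivators YAP1 (-0.63 ± 0.08) and WWTR1 (-0.65 ± 0.09), their partner TEAD1 (-1.19 ± 0.08) and the target ANKRD1, with 4.96 and 4.90 at 6 h and 7.21 and 7.44 in control (-2.40 ± 0.14). The adaptor SAV1 (1.14 ± 0.08), MOB1A (0.31) and CCN2 were higher. NOTCH genes had 5 of 25 in each direction, against 14.0% higher and 15.8% lower among all genes. The target genes HES1 (1.42 ± 0.13) and HEY1 (1.91 ± 0.12) were higher, but only 3 of 5 HES1 probe sets had that sign. HEY1 had 3.50 and 3.86 in control, under a log2 signal of 5, where the scale is compressed. The receptor NOTCH2 and its DNA-binding partner RBPJ were both lower by 0.63. The lower NOTCH count was 3 without control replicate 1, control replicate 2 or 6 h replicate 2.

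Cytokine genes moved both ways, 6 of 30 lower and 6 higher, against 15.8% and 14.0% of all genes. Of the 30, 17 were dim, where a change may not register. CXCL8, the neutrophil chemokine interleukin-8, had 8.39 and 8.55 at 6 h and 10.06 and 10.25 in control (-1.69 ± 0.10, adjusted p = 9.5e-06), CXCL2 6.19 and 6.04 against 8.62 and 8.33 (-2.36 ± 0.11), IL6 6.79 and 6.73 against 8.76 and 8.64 (-1.94 ± 0.08) and LIF 7.42 and 7.29 against 9.19 and 9.00 (-1.74 ± 0.10). The largest rise was that of IL11, by 1.56 ± 0.08. NF-kappaB genes were lower in 8 of 20 and higher in 4. Interferon-stimulated genes were higher in 9 of 30 (30.0%) and lower in 4 (13.3%), with IFI27 at a log2 fold change of 1.06 and IRF2 at -1.81. The adhesion molecules of the NF-kappaB list diverged, since VCAM1 fell to 6.85 and 6.65, against 8.80 and 8.82 in control (-2.06 ± 0.09, adjusted p = 3.2e-06), and ICAM1 had 8.78 and 8.86, against 8.22 and 8.10 (0.66 ± 0.08, adjusted p = 0.00047).

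Of 22 renal transcription factors, 6 were lower (27.3%) and none higher, against 15.8% and 14.0% of all genes. Of the 9 proximal tubule markers, 8 of them dim, SLC5A2 (0.29) and DPP4 (0.37) were higher. PAX8, a factor that specifies the kidney epithelium, had 7.999 and 7.95 at 6 h and 9.04 and 8.99 in control (-1.04 ± 0.08, adjusted p = 3.1e-05), and SALL1 fell by 1.19. Of 18 tubule injury genes, 4 were higher and 4 lower (22.2% each). CCN2, HMOX1, CLU (0.48) and LCN2 (0.40) were higher, and VCAM1, CYP1B1, SOX9 and HAVCR1 lower. The lower count was 2 without control replicate 2 or 6 h replicate 1. HAVCR1, the injury marker KIM-1, was lower, with 5.20 and 5.36 against 5.62 and 6.04 (-0.55 ± 0.14, adjusted p = 0.017). Of 17 platinum transporters, 4 were higher (23.5%) and 3 lower (17.65%), both shares not far from those of all genes. The copper importer SLC31A1 (0.33 ± 0.08), SLC31A2, ABCC5 and the copper chaperone ATOX1 were higher by 0.33 to 0.53. That count of 4 was 1 without control replicate 1, control replicate 2 or 6 h replicate 2, and 0 without 6 h replicate 1. The exporter ABCC1 was lower, with 6.93 and 6.78 against 8.17 and 8.11 (-1.28 ± 0.09, adjusted p = 1.7e-05). LRRC8D, of the same list, was lower by 0.84 on the log2 scale (1 of 2 probe sets). The epithelial keratin KRT19 was also lower, by 1.16.

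Chromatin regulators were lower more often than not. Of 69 enzymes and remodellers of histones 39 (56.5%) were lower and 4 (5.8%) higher, against 15.8% and 14.0% of all genes. The higher count was 2 without control replicate 2 and 1 without 6 h replicate 1, and the median of the list was -0.36. The acetyltransferase KAT6B had 5.26 and 5.24 at 6 h and 7.14 and 7.20 in control (-1.92 ± 0.10, adjusted p = 6.1e-06), the demethylase KDM6A 3.76 and 3.86 against 5.64 and 5.87 (-1.94 ± 0.11), and CREBBP 7.56 and 7.27 against 8.76 and 8.97 (-1.45 ± 0.12). The general transcription list of 63 genes was even, with 16 higher and 16 lower (25.4% each). Its higher count was 7 without 6 h replicate 1 and 10 without 6 h replicate 2 or control replicate 2. The largest subunit of RNA polymerase II, POLR2A, had 8.84 and 8.74 against 7.39 and 7.25 (1.47 ± 0.09, adjusted p = 9.9e-06). The Mediator subunit MED13L was lower by 1.89. HEXIM1, an inhibitor of the elongation kinase P-TEFb, did not pass (0.18 ± 0.08, adjusted p = 0.15). Clock genes had 10 of 20 lower (50.0%) and 0 higher. Their lower count was 6 without 6 h replicate 1, and their higher count 1 without control replicate 2 or 6 h replicate 2.

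These groups differ in the length of their genes, and length went with the direction of change over the whole array. The median genomic span was 87490 bases for the chromatin list, against 25700 for all genes, 10740 for AP-1 and 3825 for the other immediate-early genes. Not every lowered list was long, since the median was 29370 bases for the G2 and mitosis list and 17920 for the death receptor list. Of 18176 genes with a span, ranked by span and cut into 5 groups of like size, the shortest group (up to 7.10 kb) had 14.0% higher and 7.48% lower, the middle group 19.8% higher and 11.1% lower, and the longest group (86.7 kb and more) 3.77% higher and 34.0% lower. The longest group held 381 of the 631 genes that were 2-fold lower (60.4%) and 6 of the 268 that were 2-fold higher (2.2%). Across genes, which are not independent replicates, Spearman's rho of log2 fold change with span was -0.24 as a description over 18176 genes. All its points share the same 4 arrays. It was -0.244 and -0.235 for the 6 h arrays taken singly against the mean of the control arrays, and from -0.25 to -0.41 within each of 5 groups of bright genes by control signal.

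**Figure D5:**
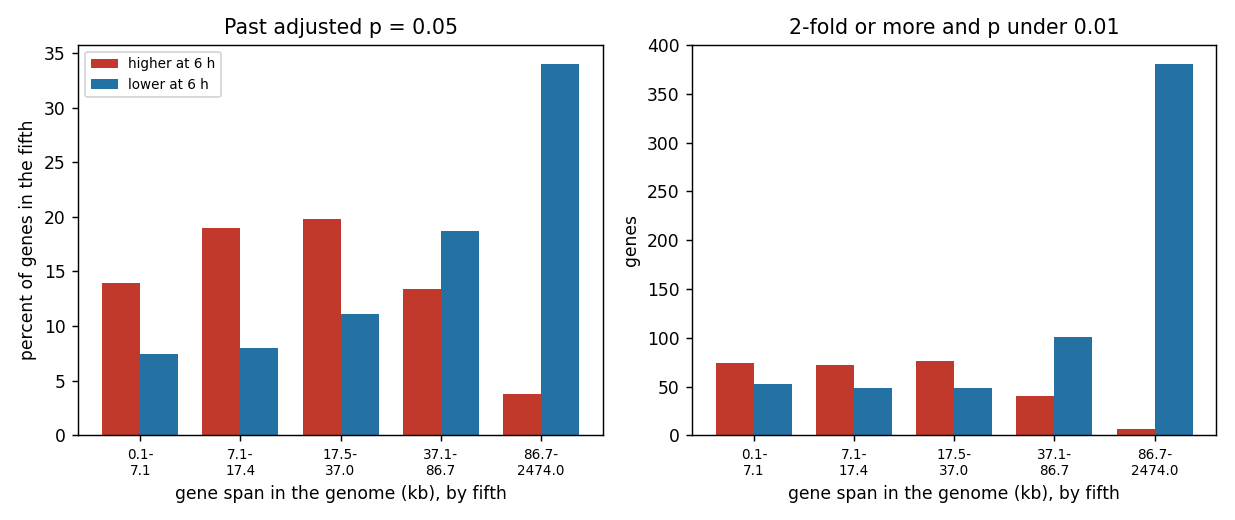
Genes in 5 groups of like size by genomic span (x axis, kb): percent of each group higher (red) or lower (blue) at an adjusted p under 0.05 (left), and number of genes 2-fold or more higher or lower with an unadjusted p under 0.01 (right). In the longest group 34.0% were lower and 3.77% higher, and 381 genes were 2-fold lower against 6 higher.

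There were exceptions in both directions. The 6 genes of the longest group that rose 2-fold were RSRP1, SERPINI1, TRIM9, TMEM74, HMGN5 and SLC1A3, of which TRIM9, a neuronal ubiquitin ligase with a span of 119840 bases, had 5.71 and 5.29 at 6 h and 3.92 and 4.16 in control (1.46 ± 0.14, adjusted p = 0.00012), and the nucleosome-binding protein gene HMGN5 had 8.22 and 8.22 against 7.05 and 7.14 (1.12 ± 0.08). TRIM9, TMEM74, HMGN5 and SLC1A3 were picked after their values were seen. In the other direction, short genes were among the strongest falls, with TEX19, a germline gene, at 5.60 and 5.53 at 6 h and 8.13 and 8.13 in control (-2.57 ± 0.08, adjusted p = 1e-06), together with CXCL2, IL6, LIF, CXCL8 and DDIT4.

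The 24 h arrays, from cells given the same dose for longer, show how the early changes stood at the later time. Between 24 h and 6 h, 37.9% of all genes passed, and of the 30 leading genes 21 differed. In 20 of these the 24 h value lay farther from control, as for DLX2 with 8.46 and 8.50 at 24 h and 6.15 and 6.19 at 6 h (24 h minus 6 h 2.31, adjusted p = 2.3e-05), KLF4 with 8.52 and 8.59 at 24 h and 6.78 and 6.70 at 6 h (1.82), and KCNJ15 with 4.50 and 4.58 at 24 h and 6.15 and 6.17 at 6 h (-1.62). RGS2 (0.06) and RSRP1 (0.06) did not pass between the times. TEX19 lay nearer to control, with 6.57 and 6.62 at 24 h and 5.60 and 5.53 at 6 h.

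Some early changes were no larger later, or smaller. IFIH1, the sensor MDA5 of double-stranded RNA, was higher at 6 h, with 6.15 and 6.13 against 4.81 and 4.98 in control (1.24 ± 0.09, 1 of 2 probe sets). At 24 h it had 5.09 and 5.08 (24 h minus 6 h -1.05, adjusted p = 8.2e-05). CENPA and PDK4, both lower at 6 h, were higher at 24 h than at 6 h by 1.18 and 1.41. Others moved mainly after 6 h: HEXIM1, which did not pass at 6 h, was higher at 24 h than at 6 h by 1.67 (adjusted p = 1.5e-05), and the histone gene H2BC12, higher by 1.12 at 6 h, by a further 3.01. MDM2 did not pass at this step either (-0.21, adjusted p = 0.16). These differences share the 6 h arrays with the comparison against control.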

How the data were processed

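Deposited values are log2 signals of Affymetrix HG-U219 arrays that the authors made with RMA in Affymetrix Expression Console 1.1 per the labels (background correction, quantile normalization, summary per probe set); they were not normalized again. No depth applies to arrays, and their number limits the precision. Of 49386 probe sets, 45253 named 1 gene; 1327 with several genes, 2713 unnamed here and 93 controls were left out. Where a gene had several probe sets, the brightest on average across the 6 arrays was used. Spans and upstream sequences came from RefSeq (GRCh38.p14). limma 3.58.1 (R 4.3.3; lmFit, eBayes) fitted 3 groups over 6 arrays, with Benjamini-Hochberg adjustment over 18239 genes, and was tested on simulated data. Other steps used Python 3.11.15, pandas 2.3.3, numpy 2.4.6 and matplotlib 3.10.9.

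The members and the 57 gene lists were chosen with earlier results of these data known. Genes were named by rule (229 in all): the 15 largest rises and the 15 largest falls that passed without overlap of arrays, from each list at most 3 in each direction that moved by 0.6 or more on the log2 scale, and genes fixed by name. Other list members named were picked with their values seen. Alternatives were the replicate block, other scalings, filters, summaries and thresholds, and each array left out. Genes lacking a probe set of their own were not analysed here.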

Additional observations from a re-analysis of the deposited data

Results flagged for a closer look

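Of the 30 leading genes, 21 differed between the 24 h and 6 h arrays at an adjusted p under 0.05 in limma, against 37.9% of all genes. Among the rises, the 24 h minus 6 h differences on the log2 scale were 0.98 for ATF3, 2.31 for DLX2, 0.65 for TMEM47, 0.44 for BAMBI, 1.39 for FOS, 1.82 for KLF4, 0.79 for SERPINI1, 0.57 for SERTAD1 and 1.13 for NEFM. Among the falls they were -0.46 for ZMIZ1, -1.03 for NHS, -1.62 for KCNJ15, -0.50 for KIF26B, -0.60 for PTPRE, -1.03 for ZHX2, -0.37 for GPR39, -0.61 for FNDC3B, -0.26 for PRKCE, -0.59 for BCAR3, -1.53 for RUNX2 and 1.03 for TEX19.

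The control probe sets made for bacterial and phage RNA, which belong to no comparison of genes, were higher on both 6 h arrays than on both control arrays. The 6 h minus control difference was 0.371 over all 36 spike-ins, 0.0975 over the 9 hybridization spike-ins, 0.541 over the 12 poly-A spike-ins and 0.40 over the other 15. Their part in the gene results was not tested beyond the scalings.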

How the results depend on the processing

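Scaling moved the counts most. With all spike-ins 690 genes were higher and 10247 lower (114 and 1384 by the rule of the methods), with the poly-A spike-ins 325 and 13127 (85 and 1997), with the hybridization spike-ins 1547 higher and with housekeeping genes 1687 higher. HEXIM1, DDB2 and PDK1, which did not pass, turned to -0.19, -0.17 and -0.19 with all spike-ins and to -0.36, -0.34 and -0.35 with the poly-A spike-ins, where XPC was -0.12. The mean of all probe sets gave 174 and 313 genes by the rule of the methods, a rho with span of -0.26, and DNAJB6 at 0.32 against -0.70 for the probe set used. Without moderation 1540 were higher and 1888 lower, 1538 were higher at an adjusted p under 0.01, and rho was -0.36 over bright genes alone.

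With 1 array left out, 1658 to 2638 genes were higher and 2169 to 2984 lower, and rho was -0.27 to -0.21. The higher count moved by over 1.5 times without control replicate 2 (1662), 6 h replicate 1 (1658) and 6 h replicate 2 (1680). Replicate numbers did not pair the arrays (correlations of deviations 0.05, -0.06 and -0.06), and the replicate block gave 2399 higher and 2810 lower. Of 229 named genes, 180 kept their direction and side of the threshold in every alternative run. 7 named genes have no value under the filter on dim probe sets.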
